A study of Mus musculus with 18 samples.

Results

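The 47 genes described here encode the machinery that brings nascent proteins into the endoplasmic reticulum (ER) and the vesicle coats that move them between the ER and the Golgi. They were chosen by name from a list of known components and not by a rule on measured values, though with earlier results of these data known. All 47 were found among the 20207 genes listed for each sample. By role they comprised 7 genes of the signal recognition particle (SRP) and its receptor, 5 of the Sec61 translocon, 4 of the translocon-associated protein (TRAP) complex and 5 of signal peptidase. The other members were 11 genes of the COPII coat and its assembly, 7 of COPI (6 coat subunits and the regulator Arfgap3), 5 cargo receptors and 3 KDEL receptors.

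SRP binds a signal sequence as it leaves the ribosome and docks at its receptor on the ER membrane, where the chain passes into the Sec61 channel and signal peptidase removes the signal. COPII coats then bud vesicles that carry folded cargo out of the ER, and COPI coats return escaped ER proteins and cargo receptors from the Golgi. Fibroblasts secrete large amounts of collagen and other matrix proteins by this route. Tunicamycin inhibits N-glycosylation, so that glycoproteins misfold in the ER and the unfolded protein response of the secretory pathway (erUPR) is engaged. Heat shock (HS) is best known for raising cytosolic chaperones.

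mRNA-seq was analysed from 18 samples of NIH3T3 cells, an established line of mouse fibroblasts. The cells stably expressed DD-GFP, a superfolder green fluorescent protein joined to a destabilizing domain, had been sorted for high GFP, and were kept in the stabilizing ligand Shield-1 throughout, in the reference as well as under stress. The 6 groups held 3 samples each. They were an unstressed reference at 0 min, HS (a shift to a higher temperature) for 45 or 135 min, and tunicamycin (Tu) for 45, 135 or 405 min. No HS samples at 405 min were analysed here. All groups share one sorted population that carries the reporter, so nothing here separates its presence from the state of the parental line.

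The samples held between 33415592 and 66478268 reads on genes. Levels are given as CPM, counts scaled to a common library total, on which 3 reads corresponded to 0.0451 to 0.0898 CPM. Of 8 fibroblast markers, all 8 had reads in every sample, and of 6 markers of epithelial, blood and endothelial cells only 2 did. The summed level ranged from 22230 to 76530 CPM for the first list and from 0.357 to 1.27 CPM for the second. Epcam and Ptprc were at 0 in every reference sample. As a check of the labels, Hsph1, a cytosolic chaperone, rose from 202 ± 38.8 to 2028 ± 742 CPM (SD, n = 3) at 135 min of HS (log2 fold change 3.33, standard error 0.35, adjusted p = 0.00792). Hspa5, the ER chaperone BiP, rose from 692 ± 40.4 to 9011 ± 252 CPM (SD, n = 3) at 405 min of tunicamycin (log2 fold change 3.73, standard error 0.15, adjusted p = 4.64e-06). At 135 min of tunicamycin Hspa5 was at 415 ± 79.1 CPM (SD, n = 3), with all 3 samples below the reference and no call (adjusted p = 0.135). At 45 min of tunicamycin it was at 935 ± 17.2 CPM, with all 3 samples above the reference and no call (adjusted p = 0.0709). Hspa5 also rose at 135 min of HS, to 1341 ± 73.8 CPM (log2 fold change 0.96, adjusted p = 0.0312). There it was higher than at 135 min of tunicamycin (log2 fold change 1.67, adjusted p = 0.0218, edgeR's quasi-likelihood test throughout).

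Several libraries stood apart from the others of their group. Correlations of log2 CPM over genes between replicates were 0.934 and 0.954 for HS 45 min replicate 3 against 0.990 between replicates 1 and 2, and 0.934 between HS 135 min replicates 1 and 2. Reference replicate 1 (0.978 and 0.979, against 0.998 for the other pair) and Tu 135 min replicate 1 (0.973 and 0.972, against 0.997) also stood apart. The members followed this. At HS 45 min 13 of 47 members differed at least 2-fold between the highest and the lowest sample, and replicate 3 was the highest for all 13. At HS 135 min it was again 13 members, with replicate 2 the lowest for 12 of them, and 11 of the 13 were the same genes as at HS 45 min. At Tu 135 min it was 7 members, all lowest in replicate 1. The count was 1 in the reference, 3 at Tu 45 min and 1 at Tu 405 min. The counts of members called are therefore given with and without these libraries. Shares at HS and at Tu 135 min are given per sample. What sets the libraries apart was not tested. For library preparation the paper names a modified Illumina protocol and also a NuGEN kit and system. It does not say which samples had which.

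**Figure D1:**
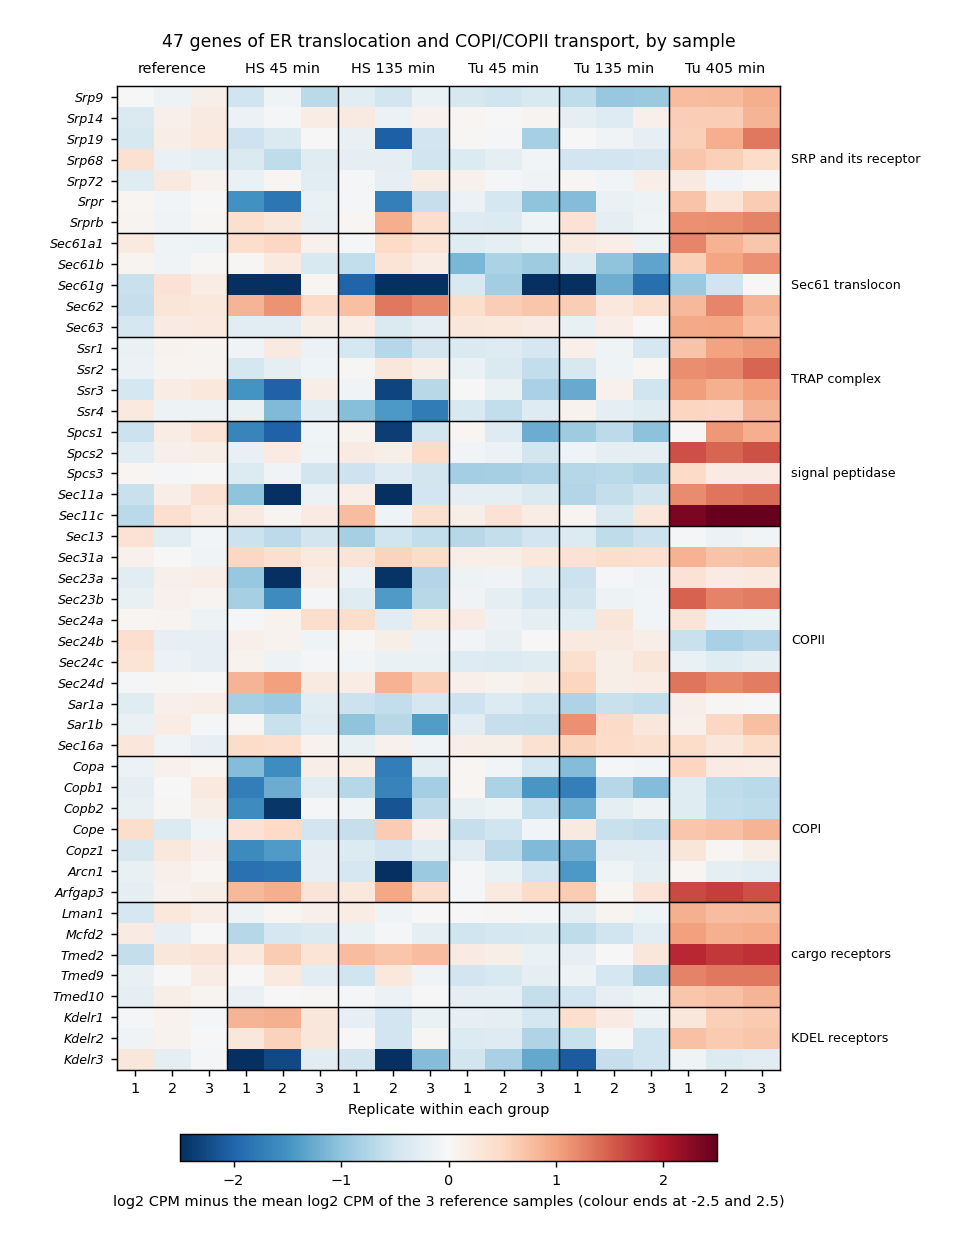
Level of each of the 47 genes (rows, grouped by role) in each of the 18 samples (columns, grouped by condition), as log2 CPM minus the mean log2 CPM of the 3 reference samples. Most rows are red in the 3 samples at 405 min of tunicamycin, and the darkest blue cells, such as those of Sec61g, Copb2, Arcn1 and Kdelr3, lie in HS 45 min replicates 1 and 2, HS 135 min replicate 2 and Tu 135 min replicate 1.

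In unstressed cells the members spanned a wide range of levels per unit of gene length. On the scale of deposited RPKM, the highest were Sec61g (181 ± 59.9), which encodes the small gamma subunit of the channel, Sec13 (180.4 ± 35.5), part of the outer COPII coat, and Ssr4 (169 ± 18.8), the delta subunit of TRAP (SD, n = 3 for each). These 3 did not differ beyond their spread, and Cope (111 ± 27.6) and Sec61a1 (109 ± 13.1), the subunit that forms the pore, followed. The lowest were Arfgap3 (8.32 ± 1.46), Sec11c (4.31 ± 1.62) and Sec24a (3.99 ± 0.233), of which the last 2 did not differ beyond their spread. By role, the median RPKM was 96.5 for the Sec61 translocon, 70.2 for the KDEL receptors and 69.2 for TRAP. It was 49.2 for cargo receptors, 45.4 for COPI, 32.1 for SRP and its receptor, 27.1 for COPII and 15.3 for signal peptidase.

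Together the 47 genes took 0.579% ± 0.0292 of the reads of a reference sample and 0.859% ± 0.0451 at 405 min of tunicamycin (SD, n = 3), 1.48 times as much. All 3 late samples lay above all 3 reference samples, which gives an exact two-sided permutation p of 0.10, the smallest that 3 against 3 samples allow. At the other times the mean share was below that of the reference, at 0.535% ± 0.0474 for Tu 45 min, 0.526% ± 0.0556 for Tu 135 min, 0.483% ± 0.0815 for HS 45 min and 0.467% ± 0.0643 for HS 135 min. Its values by replicate were 0.463%, 0.568% and 0.549% at Tu 135 min, 0.441%, 0.43% and 0.577% at HS 45 min and 0.529%, 0.401% and 0.472% at HS 135 min. The exact permutation p-values against the reference were 0.2 for Tu 45 min, 0.3 for Tu 135 min, 0.2 for HS 45 min and 0.1 for HS 135 min. In bulk samples such as these, fewer cells of a type and less RNA per cell cannot be told apart.

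At 405 min of tunicamycin, genes of every role rose, and the coats also held genes that fell. Of the 47 members 29 rose and 3 fell against the reference (edgeR's quasi-likelihood test, Benjamini-Hochberg adjusted p under 0.05), where 23.3% of the 12731 genes tested rose and 23.5% fell. The median log2 fold change was 0.71 over the members and -0.01 over all genes tested. For 33 members all 3 late samples lay above all 3 reference samples, a pattern that 29.2% of all genes tested showed, and for 3 all lay below, against 29.5%. Among the 21 genes of SRP, Sec61, TRAP and signal peptidase 17 rose and none fell, whereas among the 18 genes of COPII and COPI 5 rose, 3 fell and 10 did not pass. Without reference replicate 1, 31 members were higher and 4 lower, while the calls over all genes went from 2965 higher and 2995 lower to 4017 and 3880. The labels do not say whether replicates were separate cultures, so the p-values measure the spread between these samples, which may be technical.

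**Figure D2:**
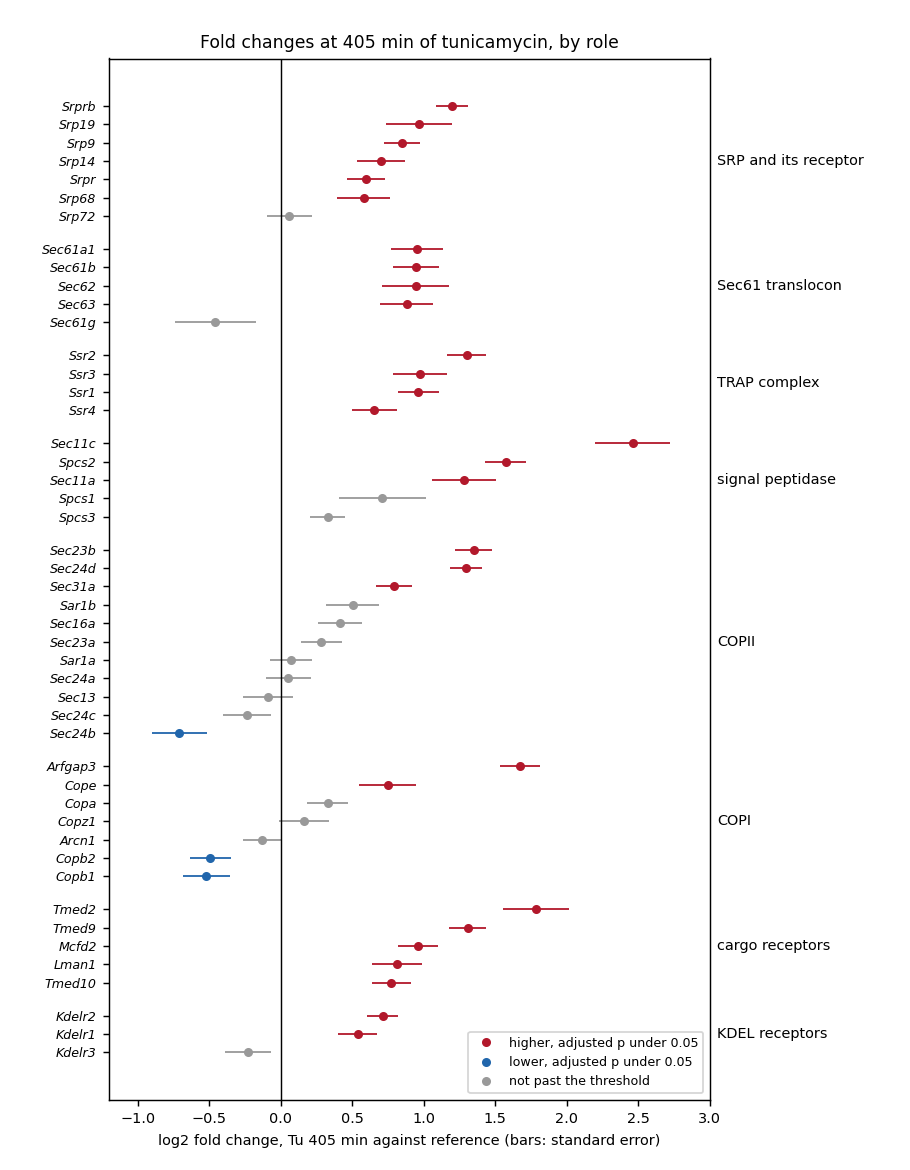
Log2 fold change of each member at 405 min of tunicamycin against the reference (points) with its standard error (bars), grouped by role, for 3 samples against 3. Red points passed the threshold above 0 and blue points below 0. All 4 TRAP genes and all 5 cargo receptors are red, and Sec24b, Copb1 and Copb2 are the 3 blue points.

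In the SRP and its receptor, 6 of 7 genes rose. Srprb, the membrane-anchored beta subunit of the receptor, was at 90.7, 81.9 and 88.5 CPM in the reference samples and at 192, 194 and 205 CPM in the late samples. The late samples were all more than 2-fold above the highest reference sample, and the change was 2.29-fold (log2 fold change 1.20, standard error 0.11, adjusted p = 0.000131). Srp9, which with Srp14 forms the part of SRP that slows translation, went from 41.4, 38.3 and 46.3 CPM to 71.6, 72.5 and 78.8 CPM without overlap (log2 fold change 0.85, standard error 0.12, adjusted p = 0.00105). Srpr, the alpha subunit of the receptor, went from 137, 126 and 133 to 216, 167 and 206 CPM, again without overlap (log2 fold change 0.59, standard error 0.13, adjusted p = 0.00754). Srp14, Srp19 and Srp68 also rose, the call of Srp68 being kept in 1 of the 6 fits made without 1 sample. Srp72, the partner of Srp68 in the particle, did not pass, at 135 ± 24.7 CPM in the reference and 139 ± 14.5 CPM late (SD, n = 3, adjusted p = 0.778), and the samples overlapped.

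In the Sec61 translocon 4 of 5 genes rose. Sec61a1 (chromosome 6 of mm9, 88453601 to 88468794) was at 459, 356 and 351 CPM in the reference and at 894, 705 and 623 CPM late (log2 fold change 0.95, standard error 0.18, adjusted p = 0.00354). Sec61b, a small subunit of the channel, went from 64.9, 58.3 and 64.0 to 94.1, 123 and 138 CPM (log2 fold change 0.95, standard error 0.16, adjusted p = 0.00209). Sec63, the membrane J-domain protein that recruits BiP to the channel, went from 54.4, 85.0 and 86.8 to 141, 144 and 124 CPM (log2 fold change 0.88, standard error 0.18, adjusted p = 0.00541). None of these 3 genes overlapped between the groups, and Sec62, the partner of Sec63, rose as well (79.7 ± 24.3 to 151 ± 24.7 CPM, SD, n = 3). Sec61g did not pass, with 104, 198 and 174 CPM in the reference against 80.6, 108 and 152 CPM (adjusted p = 0.217). Its samples overlapped, and over the 18 samples it ranged more widely than any other member, from 5.21 to 198 CPM.

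All 4 TRAP genes rose. TRAP sits beside the channel and helps some signal sequences to open it. Ssr2 was at 109, 126 and 127 CPM in the reference and at 271, 277 and 329 CPM late, more than 2-fold apart in every pairing of samples (log2 fold change 1.30, standard error 0.13, adjusted p = 0.000191). Ssr1 went from 111, 131 and 130.2 to 202, 249 and 262 CPM (log2 fold change 0.96, standard error 0.14, adjusted p = 0.00108). Ssr3 went from 123, 192 and 200.4 to 346, 309 and 339 CPM (log2 fold change 0.97, standard error 0.19, adjusted p = 0.00368). Ssr4 rose least of the 4, from 151 ± 22.4 to 234 ± 30.6 CPM (SD, n = 3), with no overlap between the groups for any of the 4 genes.

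Signal peptidase held the largest rise of any member. Sec11c, one of its 2 alternative catalytic subunits, was near the bottom of the members in the reference, at 2.31, 4.88 and 4.37 CPM, and reached 18.8, 21.4 and 22.6 CPM late. The lowest late sample was well above the highest reference sample, and the change was 5.51-fold (log2 fold change 2.46, standard error 0.26, adjusted p = 0.000228). The other catalytic subunit, Sec11a, went from 33.1, 54.6 and 63.4 to 111, 123 and 128 CPM (log2 fold change 1.28, standard error 0.22, adjusted p = 0.00223). Spcs2, a noncatalytic subunit that links the enzyme to the translocon, went from 39.2, 51.7 and 52.5 to 145, 131 and 144 CPM, a 2.97-fold change (log2 fold change 1.57, standard error 0.14, adjusted p = 0.000112). The other noncatalytic subunits did not pass. Spcs1 was at 41.0, 85.3 and 75.3 CPM late against 27.8, 46.1 and 51.4 CPM, with overlap (adjusted p = 0.0881), and Spcs3 was at 87.0, 72.2 and 72.2 against 64.8, 60.1 and 62.1 CPM, without overlap (adjusted p = 0.0582).

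The COPII genes split within families of paralogs. Of 11 genes 3 rose, 1 fell and 7 did not pass. In the inner coat, Sec23b (chromosome 2 of mm9, 144382013 to 144416479) rose from 47.4, 57.4 and 56.5 to 148, 127 and 129 CPM (log2 fold change 1.35, standard error 0.13, adjusted p = 0.000137). Its paralog Sec23a went from 55.1, 73.0 and 75.0 to 86.3, 77.5 and 79.5 CPM and did not pass, although its groups did not overlap (log2 fold change 0.28, standard error 0.14, adjusted p = 0.138). Among the cargo-selecting Sec24 subunits, Sec24d (chromosome 3, 122970414 to 123068554) rose from 145, 152 and 149.7 to 376, 343 and 360.1 CPM (log2 fold change 1.30, standard error 0.11, adjusted p = 8.46e-05). Sec24b (chromosome 3, 129686103 to 129763825) fell, from 196, 127 and 127 to 99.7, 83.4 and 87.8 CPM (log2 fold change -0.71, standard error 0.19, adjusted p = 0.0168). The late samples of Sec24b all lay below the reference samples, the highest of which was replicate 1, and the call did not hold in 2 of the 6 fits made without 1 sample. Sec24a (log2 fold change 0.05, standard error 0.16, adjusted p = 0.803) and Sec24c (log2 fold change -0.24, standard error 0.17, adjusted p = 0.277) did not pass.

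Of the remaining COPII genes only Sec31a, the rod of the outer cage, rose, from 409.5, 378 and 358 to 696, 623 and 640.2 CPM (log2 fold change 0.79, standard error 0.13, adjusted p = 0.00142). Its partner Sec13, also a nuclear pore protein, was at 256 ± 9.85 against 276 ± 63.8 CPM (SD, n = 3, adjusted p = 0.707). The GTPases that start coat assembly did not pass, Sar1a at 121 ± 6.80 against 117 ± 20.2 CPM (log2 fold change 0.07, standard error 0.15, adjusted p = 0.711) and Sar1b at 49.4 ± 10.6 against 35.4 ± 4.55 CPM (log2 fold change 0.50, standard error 0.18, adjusted p = 0.0527). Sec16a, the scaffold of ER exit sites, did not pass either, at 177 ± 12 against 134 ± 24.6 CPM (SD, n = 3, adjusted p = 0.0577).

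The COPI list held genes that rose and genes that fell. Its largest rise was that of Arfgap3 (chromosome 15 of mm9, 83130170 to 83180677), which is not a coat subunit but the enzyme that switches off the GTPase Arf1 on the coat. It was at 21.2, 27.1 and 27.9 CPM in the reference and at 78.7, 83.6 and 77.1 CPM late, a 3.19-fold change (log2 fold change 1.67, standard error 0.14, adjusted p = 7.16e-05). Of the 6 coat subunits 1 rose, 2 fell and 3 did not pass. Cope, the epsilon subunit, rose from 178, 104 and 122 to 213, 218 and 237 CPM (log2 fold change 0.75, standard error 0.20, adjusted p = 0.0161), its reference replicate 1 being well above the other two and the call being kept in 4 of the 6 fits made without 1 sample. Copb2 fell from 141, 165 and 178 to 130.4, 104 and 104 CPM (log2 fold change -0.49, standard error 0.14, adjusted p = 0.0219), and Copb1, at 50.6, 59.6 and 70.7 CPM in the reference and 48.4, 38.5 and 37.3 CPM late, fell by a similar factor. In both genes the highest late sample lay just below the lowest reference sample, and each call failed in 4 of the 6 fits made without 1 sample. Copa, Copz1 and Arcn1, the alpha, zeta and delta subunits, did not pass, with adjusted p-values of 0.0904, 0.477 and 0.47.

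RefSeq promoter windows, from 250 bases before to 50 bases after each annotated start on GRCm38.p6, were matched by symbol for 38 of the 47 members. They were searched on both strands for letters bound by factors of the ER stress and heat shock responses. The ER stress elements ERSE (CCAAT and CCACG with 9 bases between) and ERSE-II (ATTGG and CCACG with 1 base between) were found in 0 of the 38, and in 0.195% and 0.0803% of the 8714 tested genes with a window. The core of the unfolded protein response element, TGACGTGG (UPRE core), was found in 5 of the 38 (13.2%) and in 1.12% of the tested genes. Its other strand, CCACGTCA, shares the letters CCACG with the end of both ERSE patterns. The heat shock element HSE (GAA, TTC and GAA, or TTC, GAA and TTC, with 2 bases between each) was found in 1, Sec62, and in 0.62% of the tested genes. The windows are shown because 4 of the 5 UPRE cores lay in coat genes, 3 of them in the genes Sec24d, Copb1 and Copb2, which moved in opposite directions at 405 min. Capitals mark the motif and each sequence is written along the gene's own strand.
Sec24d, chr3:123267459-123267488, plus strand: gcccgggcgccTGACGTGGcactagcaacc
Sec23a, chr12:59011993-59012022, minus strand: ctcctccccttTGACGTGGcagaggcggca
Copb1, chr7:114254690-114254719, minus strand: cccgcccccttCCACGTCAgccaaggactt
Copb2, chr9:98563713-98563742, plus strand: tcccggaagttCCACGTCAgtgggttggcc
Kdelr3, chr15:79516367-79516396, plus strand: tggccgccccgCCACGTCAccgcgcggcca
Sec62, chr3:30792677-30792711, plus strand: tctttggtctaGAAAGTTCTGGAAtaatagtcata

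The motif began 26, 28, 7 and 30 bases before the annotated start in Sec24d, Copb1, Copb2 and Kdelr3, 6 bases after it in Sec23a, and 188 bases before it in Sec62. Of the 21 members that rose at 405 min and had a window, 1 (4.76%), Sec24d, held the UPRE core. Of the other genes with this motif, Copb1 and Copb2 fell and Sec23a and Kdelr3 did not pass. A match of letters is a description of the window and does not show a bound site.

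All 5 cargo receptors rose. Tmed2, a member of the p24 family that cycles between the ER and the Golgi, went from 71.5, 131 and 136 to 399, 367 and 384 CPM, a 3.45-fold change (log2 fold change 1.79, standard error 0.23, adjusted p = 0.00056). Tmed9, of the same family, went from 93.7, 106 and 121 to 251, 266 and 264 CPM (log2 fold change 1.31, standard error 0.13, adjusted p = 0.00016). Mcfd2, the partner of the lectin Lman1 in the export of clotting factors, went from 125, 93.5 and 108 to 220.4, 200.4 and 204 CPM (log2 fold change 0.96, standard error 0.14, adjusted p = 0.000989). In each of the 3 genes the lowest late sample was more than 1.5 times the highest reference sample. Lman1 (106 ± 24.8 to 184 ± 8.72 CPM) and Tmed10 (183 ± 24.9 to 308 ± 16.6 CPM, SD, n = 3) rose less.

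The KDEL receptors, which return ER chaperones that carry this signal, were 2 of 3 higher. Kdelr2 (chromosome 5 of mm9, 144165499 to 144182951) rose from 143, 161 and 149.9 to 250.4, 239 and 244 CPM (log2 fold change 0.71, standard error 0.11, adjusted p = 0.00136). Kdelr1 rose from 128, 139.5 and 126 to 159.9, 197 and 206 CPM (log2 fold change 0.54, standard error 0.14, adjusted p = 0.0123), a call that failed in 3 of the 6 fits made without 1 sample. Kdelr3, the least abundant of the 3 per unit length, was at 25.8, 21.8 and 22.9 CPM late against 33.5, 23.5 and 26.7 CPM and did not pass (log2 fold change -0.23, standard error 0.16, adjusted p = 0.277).

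Other genes of the pathway, were taken from a list of 49 known components. Of these 25 rose and 6 fell at 405 min of tunicamycin, where 23.3% of all genes tested rose and 23.5% fell. The median log2 fold change was 0.45 over the 49 genes and -0.01 over all genes tested. The 5 with the smallest adjusted p all rose. Serp1, a small protein that binds the Sec61 complex, went from 60.8 ± 11.7 to 365 ± 27.1 CPM (log2 fold change 2.61, standard error 0.17, adjusted p = 2.7e-05), and Stx5a, a SNARE of ER-to-Golgi fusion, from 48.5 ± 6.19 to 195 ± 8.11 CPM (log2 fold change 2.03, standard error 0.14, adjusted p = 3.18e-05). Ctage5, which works at exit sites in the export of bulky cargo such as collagen, went from 35.1 ± 2.71 to 135 ± 15.5 CPM (log2 fold change 1.97, standard error 0.14, adjusted p = 3.45e-05). Tfg, which organises exit sites, and the SNARE Bet1 had log2 fold changes of 1.86 and 1.93 (adjusted p = 3.44e-05 and 4.96e-05).

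The late rise was also measured against the middle time point, Tu 135 min. This comparison uses the same late samples as the one above, so its values are given beside those above and are not independent of them. Against Tu 135 min 32 members rose and 2 fell, where 21.4% of all genes tested rose and 22.4% fell, and the median log2 fold change was 0.95 over the members and -0.01 over all genes tested. Of the 21 translocation genes 20 rose, the exception being Srp72. Of the 6 fits made without 1 sample, the calls of Sec61g and Sec62 were kept in 2 each and that of Srpr in 4. For 38 members all 3 late samples lay above those of Tu 135 min and for 2 all lay below, against 29.8% and 26.9% of all genes tested. Without Tu 135 min replicate 1, 37 members were higher and 3 lower, while the calls over all genes went from 2720 higher and 2846 lower to 4094 and 4032.

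All 5 genes of signal peptidase rose between 135 and 405 min. Sec11a went from 29.1, 32 and 35.1 to 111, 123 and 128 CPM (log2 fold change 1.89, standard error 0.14, adjusted p = 8.67e-05). Spcs2 went from 43.8, 40.0 and 40.5 to 145, 131 and 144 CPM (log2 fold change 1.73, standard error 0.12, adjusted p = 7.61e-05). Spcs3, which lay below the reference at 135 min, went from 37.8, 38.8 and 37.2 to 87.0, 72.2 and 72.2 CPM, and Spcs1 from 21.8, 25.6 and 19.8 to 41.0, 85.3 and 75.3 CPM. The groups overlapped for none of these genes. Srp9 went from 27.1, 21.8 and 22.1 to 71.6, 72.5 and 78.8 CPM (log2 fold change 1.63, standard error 0.14, adjusted p = 0.000163) and Sec61b from 49.2, 31.0 and 24.9 to 94.1, 123 and 138 CPM (log2 fold change 1.74, standard error 0.27, adjusted p = 0.00201). Both were lower at 135 min than in the reference samples, without overlap.

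Among the coats, both falls between 135 and 405 min were in Sec24 paralogs. Sec24b fell from 173, 172 and 166 to 99.7, 83.4 and 87.8 CPM (log2 fold change -0.93, standard error 0.12, adjusted p = 0.000915) and Sec24c from 199.8, 168 and 186 to 135, 122 and 127 CPM (log2 fold change -0.55, standard error 0.13, adjusted p = 0.01). Sec23b (log2 fold change 1.52, standard error 0.15, adjusted p = 0.000273) and Sec24d (log2 fold change 0.95, standard error 0.15, adjusted p = 0.00177) rose, as did Sar1a and Sec13, the call of Sec13 being kept in 1 of the 6 fits made without 1 sample. Sar1a went from 67.2, 78.5 and 75.0 to 128, 117 and 116 CPM (log2 fold change 0.69, standard error 0.12, adjusted p = 0.00343), while Sar1b, which was at its highest at Tu 135 min (77.8, 49.1 and 43.1 CPM), did not pass (log2 fold change -0.22, standard error 0.26, adjusted p = 0.519). Kdelr2 rose (log2 fold change 1.0, standard error 0.17, adjusted p = 0.00256), and Kdelr1 (log2 fold change 0.31, standard error 0.18, adjusted p = 0.189) and Kdelr3 (log2 fold change 0.64, standard error 0.37, adjusted p = 0.195) did not pass.

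**Figure D3:**
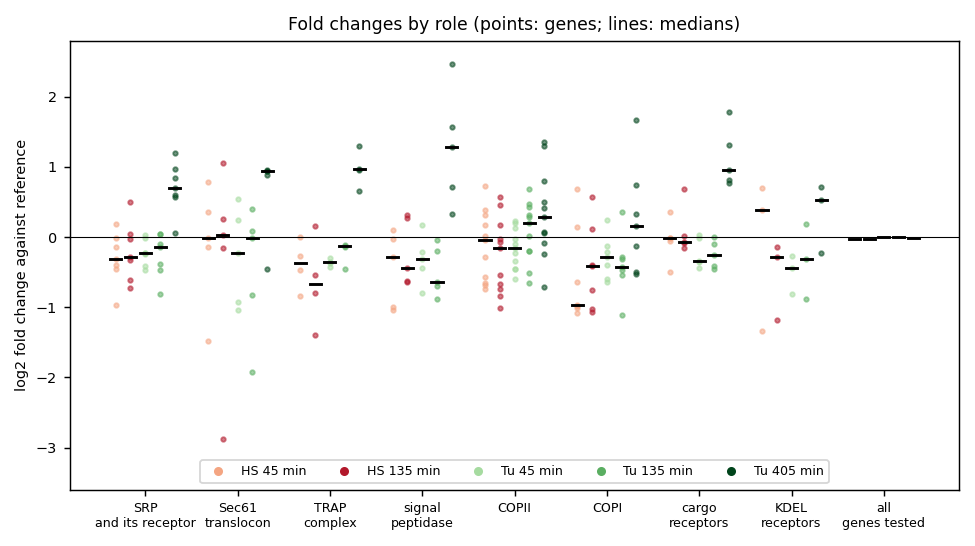
Log2 fold change against the reference of each member (points) and its median (line), by role and condition, with the medians over all 12731 genes tested at the right. The medians of Tu 405 min (darkest green) lie above 0 for every role, from 0.16 for COPI to 1.28 for signal peptidase, and those of all genes tested lie between -0.03 and 0.

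At 45 and 135 min of tunicamycin few members passed the threshold, and none was higher. At 45 min 0 rose and 2 fell, where 4.01% of all genes tested rose and 2.17% fell, and the median log2 fold change was -0.28 over the members and 0.00 over all genes. For 18 members all 3 samples lay below all 3 reference samples and for 3 all lay above, against 16% and 17.2% of all genes tested. Without reference replicate 1, 1 member was higher and 9 were lower, while the calls over all genes went from 510 higher and 276 lower to 1391 and 1108.

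Sec61b (chromosome 4 of mm9, 47487533 to 47496105) was at 28.3, 35.9 and 33.8 CPM at 45 min against 64.9, 58.3 and 64.0 CPM in the reference, a 1.89-fold fall (log2 fold change -0.92, standard error 0.14, adjusted p = 0.0127). Spcs3 (chromosome 8, 55605787 to 55615351) was at 34.8, 35.1 and 36.4 CPM against 64.8, 60.1 and 62.1 CPM, a 1.74-fold fall (log2 fold change -0.80, standard error 0.12, adjusted p = 0.0119). Replicates of Spcs3 lay within 5 CPM of each other in both groups, and neither gene overlapped. Each call failed in 4 of the 6 fits made without 1 sample. Of the 49 other pathway genes 2 rose and 1 fell, where 4.01% of all genes tested rose and 2.17% fell. Ctage5 (log2 fold change 0.83, standard error 0.13, adjusted p = 0.0138) and Sec16b, a second exit site scaffold (log2 fold change 0.85, standard error 0.15, adjusted p = 0.0233), rose. Tmed5, of the p24 family, fell (log2 fold change -0.83, standard error 0.19, adjusted p = 0.047).

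At 135 min of tunicamycin 0 members rose and 0 fell by edgeR, where 0.126% of all genes tested rose and 0.00785% fell. At an unadjusted p under 0.05, 3 members were higher and 11 lower, and over all genes 1288 and 1081. The DESeq2 Wald test called 0 members higher and 5 lower (Srp9, Sec61g, Spcs1, Spcs3 and Copb1), and over all genes 308 and 304. The median log2 fold change was -0.20 over the members and 0.00 over all genes, and -0.30 over the members without reference replicate 1. For 4 members all 3 samples lay above the reference samples and for 12 all lay below, against 13.7% and 13.6% of all genes tested. Sec61b and Spcs3 were still low, at 49.2, 31.0 and 24.9 and 37.8, 38.8 and 37.2 CPM, below every reference sample (adjusted p = 0.166 and 0.11). Sar1b was at 77.8, 49.1 and 43.1 CPM, above every reference sample (31.3, 40.3 and 34.6 CPM), and Sar1a at 67.2, 78.5 and 75.0 CPM, below them all (93.4, 126 and 130.3 CPM). Neither passed (log2 fold change 0.69, standard error 0.24, adjusted p = 0.2 for Sar1b and log2 fold change -0.65, standard error 0.19, adjusted p = 0.154 for Sar1a). Without Tu 135 min replicate 1 there were again 0 calls among the members, and over all genes 49 higher and 12 lower.

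**Figure D4:**
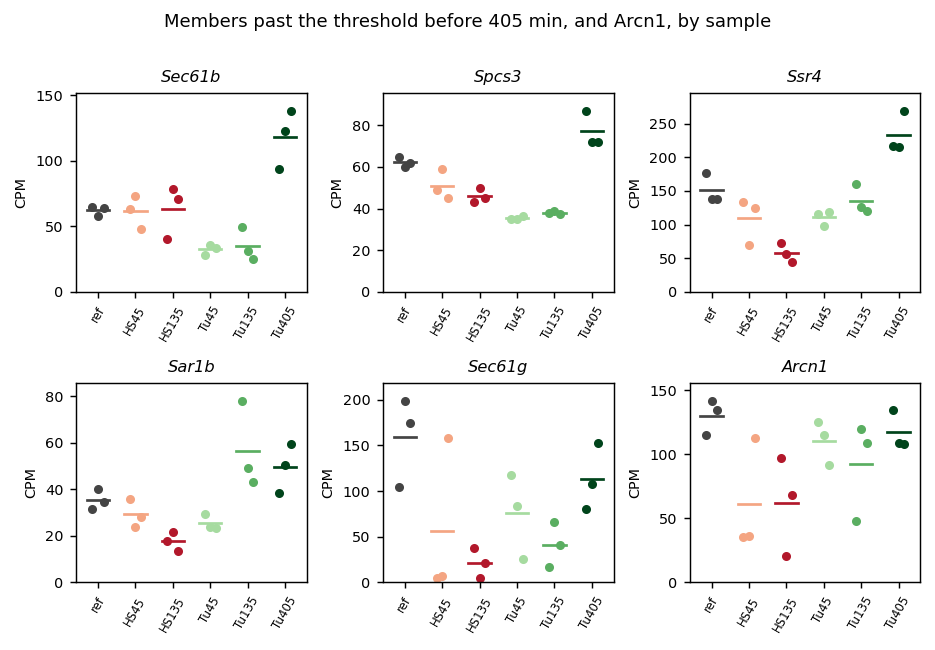
Level in CPM of 6 members in each sample (points) with the mean of 3 (line), by condition: the 5 members past the threshold in a comparison before 405 min, and Arcn1. Sec61b and Spcs3 are low at both early tunicamycin times and high at 405 min, Ssr4 is lowest at HS 135 min, and Sec61g and Arcn1 spread widely between the replicates of HS 45 min.

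Under HS for 45 min 0 members rose and 0 fell by edgeR, as for all genes tested (0% in either direction). At an unadjusted p under 0.05, 4 members were higher and 6 lower, and over all genes 1568 and 912. The DESeq2 Wald test called 0 members in either direction, and 382 genes higher and 64 lower over all genes. The edgeR count rested on 1 library. Without HS 45 min replicate 3, 4 members rose and 15 fell, while over all 12731 genes 2737 rose and 3049 fell. The 4 were Sec62, Sec24d, Arfgap3 and Kdelr1, and the lower genes included Arcn1, Copa, Copb1, Copb2 and Copz1 of the COPI coat. The values show the split within the group. Arcn1, the delta subunit of COPI, was at 35.3, 36.3 and 113 CPM against 115, 141 and 134 CPM in the reference. Sec61g was at 5.21, 6.90 and 158 CPM against 104, 198 and 174 CPM. In both genes replicate 3 lay near or within the range of the reference and the other 2 samples far below it. The 15 falls thus rested on replicates 1 and 2. Arcn1 and Sec61g were also low in HS 135 min replicate 2, at 20.3 and 5.25 CPM. In Tu 135 min replicate 1, which was not heated, they were at 47.8 and 16.4 CPM. What these low samples share was not tested.

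Some members were higher in all 3 samples at HS 45 min without a call. Kdelr1 was at 238, 243 and 159.8 CPM against 128, 139.5 and 126 CPM (log2 fold change 0.70, standard error 0.23, adjusted p = 0.227), and Sec24d at 267, 301 and 174 CPM against 145, 152 and 149.7 CPM (log2 fold change 0.73, standard error 0.25, adjusted p = 0.232). Kdelr1 had returned to 113, 94.2 and 117 CPM at HS 135 min, below every reference sample (adjusted p = 0.332). For 6 of 47 members the HS 45 min samples all lay above the reference samples and for 9 all lay below, against 12.5% and 12.8% of all genes tested.

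At 135 min of HS 0 members rose and 2 fell, where 4.75% of all genes tested rose and 2.64% fell, and the median log2 fold change was -0.16 over the members and -0.02 over all genes. Without HS 135 min replicate 1 the median over the members was -0.30. For 6 members all 3 heated samples lay above the reference samples and for 13 all lay below, against 18.1% and 19% of all genes tested. Ssr4 (chromosome X of mm9, 71032401 to 71036161) was at 72.0, 55.6 and 44.7 CPM against 177, 138 and 138 CPM, a 2.62-fold fall without overlap (log2 fold change -1.39, standard error 0.24, adjusted p = 0.021). Sec61g (chromosome 11, 16401641 to 16408487) was at 38.1, 5.25 and 21.3 CPM against 104, 198 and 174 CPM, a 7.36-fold fall (log2 fold change -2.88, standard error 0.64, adjusted p = 0.0391). All 3 heated samples of both genes lay below the reference, but Sec61g ranged more than 7-fold between them. Without HS 135 min replicate 2, 0 rose and 3 fell (Sec61g, Ssr4 and Sar1b), and over all genes 727 rose and 509 fell. Without HS 135 min replicate 1, 2 rose (Sec62 and Sec24d) and 4 fell, and over all genes 1535 and 932. Without any 1 of the reference samples the calls of Ssr4 and Sec61g did not hold. Over all genes these fits gave 350 higher and 192 lower, 12 and 3, and 10 and 1, for replicates 1, 2 and 3.

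Sec62 was at 130.2, 192 and 177 CPM at HS 135 min against 51.7, 94.7 and 92.7 CPM in the reference. These samples lay above every reference sample, but Sec62 did not pass (edgeR, adjusted p = 0.0603). It was also above every reference sample without a call at Tu 45 min (104, 117.5 and 123.5 CPM). At Tu 405 min it was called higher (134, 179 and 139 CPM). Any link between these levels and the HSE letters shown above was not tested. Reference replicate 1 was much lower than the other reference samples for this gene. Of the 49 other pathway genes 2 rose and 2 fell, where 4.75% of all genes tested rose and 2.64% fell. Tmed8, a protein with the GOLD domain of the p24 family, went from 15.9 ± 1.74 to 49.3 ± 5.68 CPM (SD, n = 3, log2 fold change 1.63, standard error 0.21, adjusted p = 0.0127) and Tram2, a translocating-chain-associated membrane protein, from 13.3 ± 2.09 to 26.8 ± 2.58 CPM (log2 fold change 1.01, standard error 0.23, adjusted p = 0.0393). Cnih4, a cargo receptor of the cornichon family (log2 fold change -1.29, standard error 0.22, adjusted p = 0.021), and Arfgap1, an Arf1-inactivating enzyme like Arfgap3 (log2 fold change -0.89, standard error 0.19, adjusted p = 0.0359), fell.

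The stresses were compared directly at 135 min, the last time that both have. Of the members 0 were higher and 2 lower under HS than under tunicamycin, where 1.3% of all genes tested were higher and 0.817% lower. Ssr4 was at 72.0, 55.6 and 44.7 CPM under HS against 159.7, 126 and 121 CPM under tunicamycin (log2 fold change -1.26, standard error 0.23, adjusted p = 0.0484). Sar1b was at 17.6, 21.8 and 13.3 CPM against 77.8, 49.1 and 43.1 CPM (log2 fold change -1.71, standard error 0.31, adjusted p = 0.0442). Neither gene overlapped. For 6 members the HS samples all lay above the tunicamycin samples and for 7 all lay below, against 13.4% and 13.1% of all genes tested. Of the 49 other pathway genes 2 were higher under HS and 0 lower. The 2 were Tmed8 (log2 fold change 1.88, standard error 0.22, adjusted p = 0.0199) and the SNARE Sec22b (log2 fold change 1.25, standard error 0.21, adjusted p = 0.0404). Without HS 135 min replicate 2, and likewise without Tu 135 min replicate 1, neither Ssr4 nor Sar1b passed. Over all genes these 2 fits gave 92 higher and 31 lower, and 2 and 1. Of the 6 fits made without 1 sample, the call of Ssr4 was kept in 1 and that of Sar1b in 0. At 405 min the stresses cannot be compared.

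Shares within families of paralogs do not depend on how libraries are scaled, and were computed from the deposited RPKM. With 3 samples against 3 no exact permutation test can go below 0.10, so none of these shares can pass 0.05. Sec23a made up 43.8%, 46.0% and 47.1% of Sec23 RPKM in the reference and 28.0%, 29.0% and 29.2% at 405 min of tunicamycin (exact two-sided permutation p = 0.10). Sec24d made up 29.5%, 38.5% and 39.0% of Sec24 RPKM in the reference and 62.9%, 64.3% and 64.4% late (exact p = 0.10). Neither share overlapped between the groups, and the late samples of each lay within 2 percentage points. Sec11c made up 9.88% ± 1.34 of Sec11 RPKM in the reference and 20.1% ± 0.324 late (SD, n = 3, exact p = 0.10). Its share lay above every reference sample in all samples of the other stressed groups too, at 12.4%, 14.2% and 13.8% for Tu 45 min, 16.1%, 11.5% and 15.5% for Tu 135 min, 20.4%, 41.7% and 12.2% for HS 45 min and 14.1%, 38.7% and 16.6% for HS 135 min (exact p = 0.10 for each). At both HS times it was highest in replicate 2, the sample of its group with the least Sec11a (24.2, 7.80 and 44.0 CPM at 45 min and 54.9, 7.76 and 35.0 CPM at 135 min).

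For Sar1 the shares lay apart at 135 min of tunicamycin. Sar1a made up 57.4%, 58.6% and 63.0% of Sar1 RPKM in the reference, 28.1%, 41.9% and 44.1% at 135 min (exact p = 0.10) and 60.3%, 51.2% and 47% at 405 min (exact p = 0.3). All 3 samples at 135 min lay below the reference, while those at 405 min overlapped it. Among the KDEL receptors Kdelr3 made up 11% ± 2.23 of the RPKM in the reference, 6.38% ± 0.832 at 405 min (SD, n = 3), and 1.28%, 1.5% and 7.65% in the HS 45 min samples (exact p = 0.10 for both). Kdelr1 made up 45.6% ± 0.887 in the reference and 45.0% ± 3.98 at 405 min (SD, n = 3, exact p = 1). Its share lay above every reference sample at HS 45 min (60.1%, 55.8% and 47.2%), Tu 45 min (48.4%, 48.8% and 52.8%) and Tu 135 min (65.4%, 51.2% and 51.9%), each with an exact p of 0.10.

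**Figure D5:**
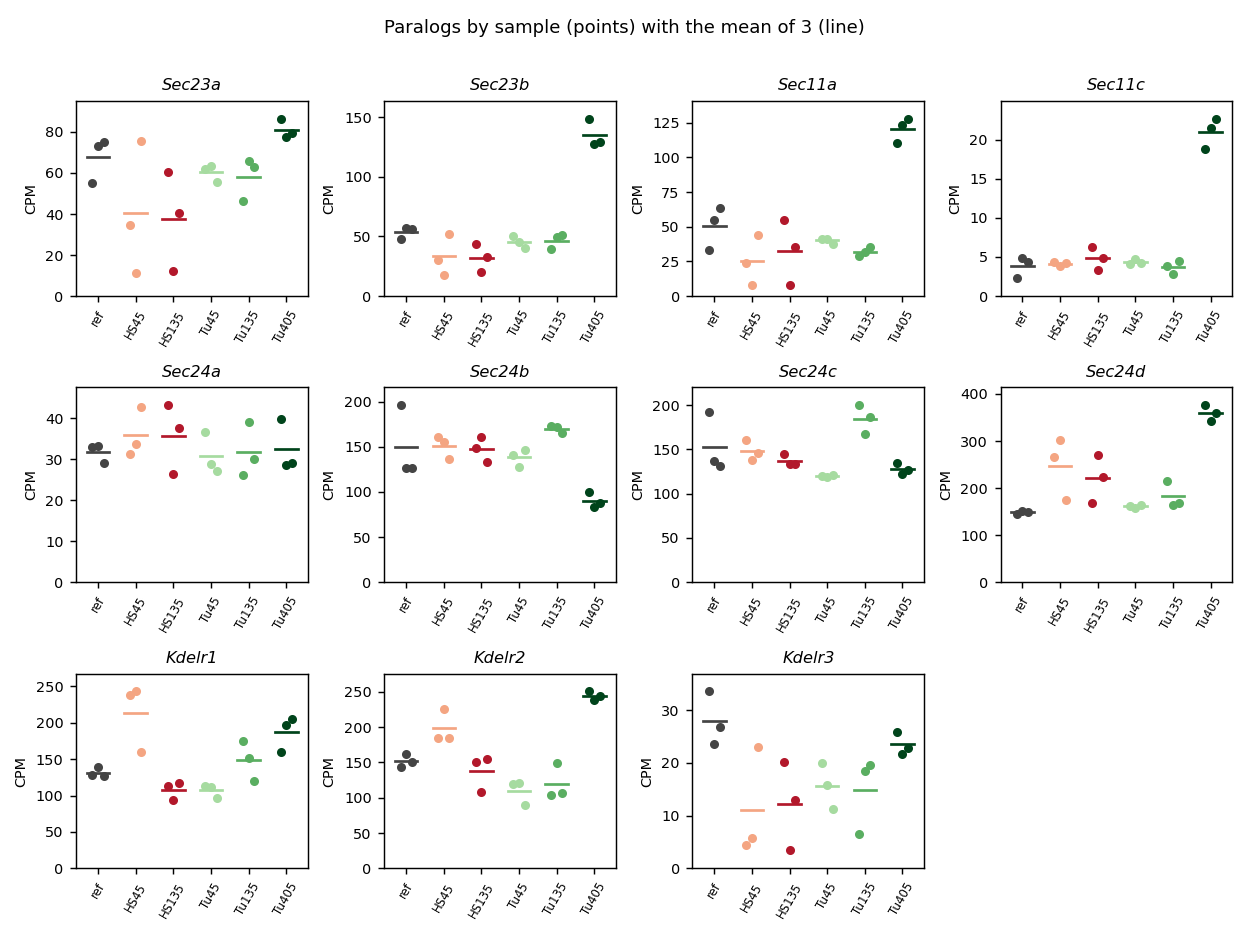
Level in CPM of 11 genes of the Sec23, Sec11, Sec24 and KDEL receptor families in each sample (points) with the mean of 3 (line), by condition. At 405 min of tunicamycin Sec23b, Sec24d, Sec11a, Sec11c and Kdelr2 lie above every other sample of the series, and Sec24b lies below every other sample.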

How the data were processed

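Poly(A) mRNA was sequenced on the Illumina platform by the authors, 3 samples for each of 6 groups. The paper names a modified Illumina protocol and also a NuGEN kit and system for the libraries, without assigning them to samples. The deposited values per sample and gene are estimated counts, not normalized, together with RPKM, both made by the authors on the DNAnexus platform from reads aligned to mm9 with RefSeq genes. The deposited files also hold a standard score (Z-score), for which the authors subtracted the mean RPKM of a library and divided by its SD, and a signal, for which the authors divided RPKM by its root mean square. Neither was used in a test. Aligner, counter and the handling of strand and of reads that match several places are not given in the sources used here, so antisense genes and near-identical copies could not be told apart. Groups were taken from the labels. The 47 members, the 49 other pathway genes and the marker lists were chosen with earlier results of these data known.

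Estimated counts, which need not be whole, were rounded and tested with edgeR 4.0.16 in R 4.3.3 (quasi-likelihood test, TMM normalization, only the 2 compared groups in a fit, no covariate). The 12731 genes with at least 1 read in each of the 18 samples were tested, all 47 members among them, and p-values were adjusted by Benjamini-Hochberg over these genes with a threshold of 0.05. The standard error is the absolute log2 fold change divided by the square root of F. CPM levels were scaled by TMM over all 18 samples. Exact two-sided permutation tests used scipy 1.17.1. Floors of 3 reads cover counting error only, whereas SDs and standard errors include the spread between samples. Coordinates are those of the deposited files, of which 741 genes had different coordinates between files. The procedure was tested on simulated counts.

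Fold changes are given for members past the threshold, at most 3 per role and comparison by adjusted p, and for the Sec23, Sec24, Sar1, Sec11 and KDEL receptor paralogs, and of the other pathway genes for the 5 with the smallest adjusted p among those past the threshold. Members not past the threshold that are named for context are given by their levels and adjusted p. No 2 samples of a group were alike within sampling noise. The labels number the replicates of each group. Samples with the same number deviated together at Tu 135 min against the reference (correlations of 0.299 to 0.342 for all 3 pairs), as a hint from the data and not from the labels. At HS 45 min against the reference they did so in part, with correlations of -0.28 to 0.411. Their mean there was 0.171, against -0.129 for samples with different numbers. In the remaining comparisons the mean for the same number was negative. With the replicate number as a block, 0 of 47 members passed at Tu 135 min in either direction, as without it. Over all genes 0 passed with the block in either direction. Alternatives were DESeq2 1.42.0, its size factors, total counts, other filters, 1 fit over all 6 groups, the replicate block, an offset for GC content and leaving out each sample.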

Additional observations from a re-analysis of the deposited data

Results flagged for a closer look

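Both genes that differed between the stresses at 135 min met a test of the difference itself. Ssr4 was lower under HS than under tunicamycin (edgeR's quasi-likelihood test, log2 fold change -1.26), with all 3 HS samples below all 3 tunicamycin samples. Sar1b was lower by a log2 fold change of -1.71, again in all 3 samples. Of the 6 fits made without 1 sample, the call of Ssr4 was kept in 1 and that of Sar1b in 0. With the replicate block neither was kept, and over all genes 0 passed in either direction.

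The tunicamycin time points differed from each other, with 32 members higher at 405 min than at 135 min and 2 lower. Groups of 3 samples were not tested for single outlying samples.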

How the results depend on the processing

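Of the 32 calls at Tu 405 min against the reference, 24 were kept in all 6 fits that left out 1 sample and 25 in all 9 other alternatives, and of the 34 against Tu 135 min, 29 and 27. None of the 6 calls in comparisons before 405 min was kept in all. Leaving out 1 sample gave 25 to 31 members higher and 0 to 4 lower at Tu 405 min, 28 to 37 and 1 to 3 against Tu 135 min, 0 to 4 and 0 to 15 at HS 45 min, 0 to 2 and 0 to 4 at HS 135 min, 0 to 1 and 0 to 9 at Tu 45 min, 0 in either direction at Tu 135 min, and 0 higher and 0 to 1 lower for HS 135 min against Tu 135 min. The shared fit of all groups gave 4 members higher and 3 lower at HS 45 min (925 and 420 over all genes, from 0 and 0). It gave 4 and 6 at HS 135 min (1829 and 1414 over all genes) and 0 and 3 at Tu 135 min (233 and 178). At Tu 405 min it gave 24 higher and 1 lower, from 29 and 3 (2008 and 2049 over all genes, from 2965 and 2995). For HS against Tu it gave 3 higher and 3 lower (998 and 773 over all genes). The DESeq2 Wald test gave 1 higher and 4 lower at HS 135 min (1220 and 913 over all genes), 7 lower at Tu 45 min (969 and 867) and 5 lower at Tu 135 min (308 and 304). For HS against Tu it gave 1 higher and 2 lower (715 and 541 over all genes). The GC offset gave 2 higher and 4 lower at HS 135 min (1256 and 1259 over all genes), 4 lower at Tu 45 min (1103 and 840) and 1 lower at Tu 135 min (182 and 127). For HS against Tu it gave 1 higher and 3 lower (771 and 732 over all genes), and DESeq2 size factors gave 1 lower there. With total counts in place of TMM the median log2 fold change of all genes was -0.19 at HS 45 min (from -0.03), -0.19 at HS 135 min (from -0.02), 0.10 at Tu 45 min (from 0.00), -0.11 at Tu 405 min (from -0.01) and -0.18 for HS against Tu (from -0.03). This moved the calls over all genes from 605 higher and 336 lower to 498 and 426 at HS 135 min, from 510 and 276 to 878 and 180 at Tu 45 min, and from 166 and 104 to 209 and 275 for HS against Tu. HS 135 min then had 3 members lower and HS against Tu 3. Leaving out 1 sample moved the members' median log2 fold change over a range of -0.26 to -0.11 at HS 45 min, -0.30 to -0.16 at HS 135 min and -0.30 to -0.14 at Tu 135 min. The GC offset changed its sign at HS 45 min, from -0.141 to 0.065, with -0.078 over all genes. With the replicate block added it was -0.001. At HS 135 min and Tu 135 min the GC offset gave member medians of -0.19 and -0.12. The causes of these differences were not tested.

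With the replicate block, 0 members were lower at HS 135 min, at Tu 45 min and for HS against Tu, and 1 at Tu 405 min beside 30 higher. Over all genes the block left 0 higher and 0 lower at HS 135 min and for HS against Tu. It left 21 higher and 0 lower at Tu 45 min and 2691 and 2579 at Tu 405 min. With the GC offset and the replicate block together, 2 members were higher and 1 lower at HS 135 min, 1 lower at Tu 45 min and 0 lower for HS against Tu. Over all genes this fit gave 468 higher and 290 lower, 322 and 194, and 0 and 0 in these comparisons. Outside Tu 135 min against the reference, samples with the same number had correlations of -0.836 to 0.411 over the other 6 comparisons. Their mean was positive only at HS 45 min (0.171). Estimated counts of 33415592 reads or more put every member above the floor of 3 reads in each sample, so the spread between 3 samples limits the precision.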
